A study of Mus musculus with 12 samples.

Results

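The genes described here are 10 components of insulin and insulin-like growth factor (IGF) signalling, measured in single cells of mouse paw epidermis. They were chosen by symbol, and each symbol matched 1 of the 32285 features counted in every library. They are the insulin receptor gene Insr, the IGF receptor genes Igf1r and Igf2r, the adaptor genes Irs1 and Irs2, and the IGF binding protein genes Igfbp2, Igfbp3, Igfbp4, Igfbp5 and Igfbp7. The rule used the symbols and no measured value.

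The animals were wild-type C57BL/6J mice that began a diet at 6 to 8 weeks of age, stayed on it for 10 weeks and were 16 to 18 weeks old at collection. The regular diet (RD) held 11% fat and the high-fat diet (HFD), EnvigoTD88137, held 42%. Each was given to 3 males and 3 females, and no drug was given in any group. The epidermis of the hairless hind paw skin was peeled off with Dispase, dispersed with TrypLE and sequenced with 10x Genomics 3' chemistry, with 1 library for each of the 12 mice. Insulin resistance and raised insulin are known features of long high-fat feeding in this strain, so the comparison of HFD with RD asks how the genes that receive and pass on insulin and IGF signals stood in each cell type.

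Insulin and the IGFs act through closely related tyrosine kinase receptors. INSR binds insulin, IGF1R binds IGF1 and IGF2, and both phosphorylate the adaptors IRS1 and IRS2, which recruit PI 3-kinase and so activate AKT and mTOR and keep FOXO transcription factors out of the nucleus. IGF2R is a different kind of protein, a transporter of mannose 6-phosphate tagged enzymes that also takes IGF2 into the cell for degradation. The IGF binding proteins are secreted carriers that hold IGFs outside the cell and can block or prolong their action. IGFBP7 belongs to the same superfamily but binds IGFs weakly. In skin, IGF1 is supplied mostly by dermal fibroblasts, and basal keratinocytes, which lie on the dermis, respond to it by dividing.

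The libraries held 134449247 to 194673581 unique molecular identifiers (UMIs, counted transcripts), and 62147 male and 64228 female cells passed the filters, between 6226 and 15193 in a library. Of 137882 distinct barcodes, 2492 occurred in more than 1 library, with 15 to 70 shared by any pair of libraries. Cells were clustered in males and females separately, without using the 10 genes or the other genes of the pathway, and classes were named from marker genes. Langerhans cell-like (LC-like) cells, the antigen-presenting cells of the epidermis, numbered 1346 in males and 2128 in females and carried Cd207 at mean levels of 2747 and 3792 CPM (UMIs of a gene for every 1000000 UMIs of the class), against 0.605 and 1.38 in all keratinocytes. T cell-like cells numbered 221 and 341 and carried Cd3e at 315 and 206 CPM, against 0.0207 and 0.0273 CPM in all keratinocytes. The keratinocyte classes were named migratory, basal, terminally differentiated, proliferating and suprabasal or spinous, the first with Krt79 at 2157 and 1696 CPM. A male cluster of 1585 cells led by Dynap, Aox3 and Prelp did not take a name and is called cluster 8, although it had 5 detected basal markers and held Krt79 at 2451 CPM. "All keratinocytes" is the sum of every kept cell that was neither LC-like nor T cell-like.

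Male and female levels are given side by side and were not tested against each other. The deposited male matrices name Cell Ranger 6.1.0 and the female matrices Cell Ranger 7.2.0, so sex and counting software cannot be told apart. Versions of that program differ in whether reads from introns count by default, and the setting used is not given in the sources used here. In all keratinocytes the female level was 7.31 times the male level for Igf1r, 3.25 times for Insr, 2.66 times for Irs1, 2.17 times for Igfbp4 and 2.13 times for Igfbp3. For Igf2r, Igfbp7, Igfbp2 and Igfbp5 it was 1.62, 1.33, 1.25 and 1.14 times the male level, and Irs2 was the exception, at 0.739 times. In the GENCODE annotation of GRCm38, Igf1r lies on chromosome 7 (67952827 to 68233668, plus strand) with 264051 of its 280842 bases in introns, and Insr on chromosome 8 (3122061 to 3279617, minus strand) with 143811 of 157557. Irs2, also on chromosome 8 (10984681 to 11008458, minus strand), has 17455 intronic bases of 23778. Igfbp3 has 4708 intronic bases of 7838 and Igfbp7 57593 of 58802. The part of intron counting in the ratios was not tested.

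The sequences just before the starts of 4 of the genes are shown because these genes marked the opposite ends of the pattern described below. Igfbp2, Igfbp3 and Igfbp7 stood highest in basal or proliferating keratinocytes, and Irs2 stood high in the immune cells. The 250 bases before the RefSeq start (GRCm38.p6) are given 5′ to 3′ on the strand of the gene, and capitals mark the GC box GGGCGG, a motif bound by SP1-family factors, on either strand. They lie at chr1:72824230-72824479 (plus strand) for the upstream of the listed Igfbp2 starts, chr11:7213924-7214173 (minus strand) for Igfbp3, chr5:77408046-77408295 (minus strand) for Igfbp7 and chr8:11008930-11009179 (minus strand) for Irs2.
Igfbp2: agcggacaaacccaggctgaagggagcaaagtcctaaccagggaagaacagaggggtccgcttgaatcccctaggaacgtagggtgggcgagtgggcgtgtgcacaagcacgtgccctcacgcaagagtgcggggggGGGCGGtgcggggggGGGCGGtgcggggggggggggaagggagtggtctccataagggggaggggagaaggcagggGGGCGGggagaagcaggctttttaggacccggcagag
Igfbp3: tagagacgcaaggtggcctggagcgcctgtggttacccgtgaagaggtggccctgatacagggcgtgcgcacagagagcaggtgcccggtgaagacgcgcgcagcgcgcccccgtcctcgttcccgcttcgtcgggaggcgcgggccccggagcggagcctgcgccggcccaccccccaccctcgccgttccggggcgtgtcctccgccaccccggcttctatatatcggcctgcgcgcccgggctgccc
Igfbp7: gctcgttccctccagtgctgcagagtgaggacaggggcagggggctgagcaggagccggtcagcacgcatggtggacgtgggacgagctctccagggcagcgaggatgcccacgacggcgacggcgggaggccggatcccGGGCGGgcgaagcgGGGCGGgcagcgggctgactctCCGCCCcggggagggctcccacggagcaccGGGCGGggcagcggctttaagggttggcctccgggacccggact
Irs2: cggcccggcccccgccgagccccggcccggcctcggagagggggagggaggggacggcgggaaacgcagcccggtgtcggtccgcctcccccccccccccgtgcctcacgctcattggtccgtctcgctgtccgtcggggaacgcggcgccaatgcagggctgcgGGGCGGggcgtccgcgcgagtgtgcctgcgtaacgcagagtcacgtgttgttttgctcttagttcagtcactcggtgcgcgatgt
The promoters shown for Igfbp7, Igfbp2 and Irs2 held 4, 3 and 1 GC boxes, and that of Igfbp3 held 0. The promoter of the other listed Igfbp2 start, at chr1:72825137-72825386, held 0 and had 56.4% G and C. Among the 32851 promoters of the same length in the table, 32.7% held at least 1. The forkhead motif TGTTTAC, searched on both strands because FOXO factors act downstream of insulin, was found in 0 of the promoters of the 9 listed genes and in 3.17% of all promoters. A TATA box (TATAAA, both strands) was found in 1 of the listed genes, Igfbp4, and in 12.4% of all promoters. The share of G and C was 56.4 to 77.6% in the promoters of these genes against a median of 52.4% over all promoters. Insr was not matched in the table.

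The receptors and adaptors divided between cell classes in different ways. Insr had its highest mean in LC-like cells and Irs2 in T cell-like and then LC-like cells, with ranges of these 2 classes that overlapped in males, and Igf1r was highest in basal and T cell-like cells in females and in cluster 8, T cell-like and migratory cells in males. Terminally differentiated cells had the lowest mean of Insr, Igf1r and Igf2r in both sexes. The differences between neighbouring classes were compared with a two-sided exact paired permutation test over the 6 mice of a sex. Its smallest possible p is 0.03125, which came to no less than 0.109 in males (70 neighbouring pairs) and 0.0852 in females (60 pairs) after Benjamini-Hochberg adjustment, so no pair was called different and the ranges over mice are given as well.

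Insr, the insulin receptor gene, stood at 70.5 ± 9.43 CPM (SD, n = 6 mice) in female LC-like cells. The RD females had 65.5, 67.4 and 66.4 CPM and the HFD females 89.5, 64.9 and 69.1 CPM, every one above the highest value of any keratinocyte class. Next came migratory cells at 21.6 ± 1.91 and basal cells at 19.6 ± 1.59, whose ranges overlapped, then T cell-like cells at 18.4 ± 9.93, proliferating cells at 14.4 ± 2.15 and suprabasal or spinous cells at 12.9 ± 1.02, each overlapping its neighbour. Terminally differentiated cells stood apart at 5.53 ± 0.667 CPM. In males LC-like cells again had the highest mean, 11.0 ± 3.17 CPM, with 13.0, 10.1 and 6.03 in RD and 15.5, 10.9 and 10.3 in HFD mice. This rested on 96 UMIs in all, and the range overlapped those of T cell-like cells (9.47 ± 14.8, 5 UMIs, 4 mice at 0) and migratory cells (8.43 ± 0.973). Male basal cells had 5.60 ± 0.456, suprabasal or spinous cells 4.37 ± 0.351, proliferating cells 4.25 ± 0.0988 and terminally differentiated cells 2.44 ± 0.656 CPM, the last below every other keratinocyte class in range.

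Irs2, the adaptor that carries insulin signals in many metabolic tissues, had its highest levels in the immune cells. T cell-like cells had 225 ± 80.9 CPM in males and 219 ± 33.3 in females, and LC-like cells 108 ± 18.8 and 95.5 ± 12.1. In females the classes stood apart without overlap from T cell-like through LC-like, migratory (53.1 ± 7.41) and basal (27.8 ± 1.76) to the remaining 3, which lay between 15.9 ± 0.684 and 20.02 ± 2.45. In males T cell-like cells overlapped LC-like cells in range, though they were higher in 6 of 6 mice, and LC-like cells overlapped cluster 8 (103 ± 3.74). The last 2 stood above migratory cells (60.2 ± 9.53), and those above basal cells (32.0 ± 2.57). The remaining male keratinocytes had 21.1 ± 2.32 to 29.3 ± 6.25 CPM. Within suprabasal cells the upper male cluster led by Tubb3 and Rbp2 had 31.2 ± 4.46 CPM and the Il34 cluster 16.7 ± 2.51. Within terminally differentiated cells the late Lce1 cluster had 9.51 ± 2.06 CPM in males and 8.12 ± 2.26 in females, against 40.7 ± 10.1 and 30.1 ± 4.46 in the other cluster of the class. The other cluster of the class was led by Il1f6 in males and Wfdc21 in females.

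Irs1, the related adaptor that is prominent in muscle and fat, was close to the limit of detection. Its highest class mean was 2.04 ± 0.259 CPM in males (proliferating) and 4.95 ± 0.716 in females (basal). Male LC-like cells held 3 UMIs of it in all and male T cell-like cells 0, so its level in these cells was not detectable at this depth. In keratinocytes the order was basal or proliferating, migratory, suprabasal and terminally differentiated in both sexes.

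Igf1r, the IGF1 receptor gene, was higher in basal, proliferating and migratory cells than in suprabasal or terminally differentiated cells. In females basal cells had 232 ± 5.25 CPM, T cell-like cells 221 ± 54.7, migratory cells 172 ± 9.04 and proliferating cells 151 ± 10.4. LC-like cells (90.3 ± 17.3), suprabasal or spinous cells (50.6 ± 4.31) and terminally differentiated cells (28.4 ± 3.32) followed, each below the one before in range. Basal cells of the female cluster led by Has2 and Mmp3 had 302 ± 23.1 CPM and those of the Dlk2 cluster 184 ± 8.74. In males cluster 8 had 49.0 ± 5.19, T cell-like cells 44.7 ± 20.2, migratory cells 39.0 ± 3.19, basal cells 33.9 ± 1.61 and proliferating cells 25.3 ± 0.961 CPM. Male LC-like (9.18 ± 4.78, with 1 mouse at 0), suprabasal (6.23 ± 1.03) and terminally differentiated cells (4.29 ± 0.593) were lower. The drop from basal to suprabasal cells stood outside the ranges in both sexes.

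Igf2r encodes the transporter that clears IGF2. T cell-like cells had the highest mean, 44.9 ± 17.3 CPM in males, above every other class in range, and 48.0 ± 19.2 in females, where they overlapped LC-like cells. Terminally differentiated cells had the lowest, 8.94 ± 0.456 and 15.004 ± 1.64, below every other class in range. The classes between lay within 13.8 ± 2.19 to 18.7 ± 2.64 CPM in males and 23.4 ± 0.611 to 32.6 ± 5.68 in females, with each overlapping the next.

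**Figure D1:**
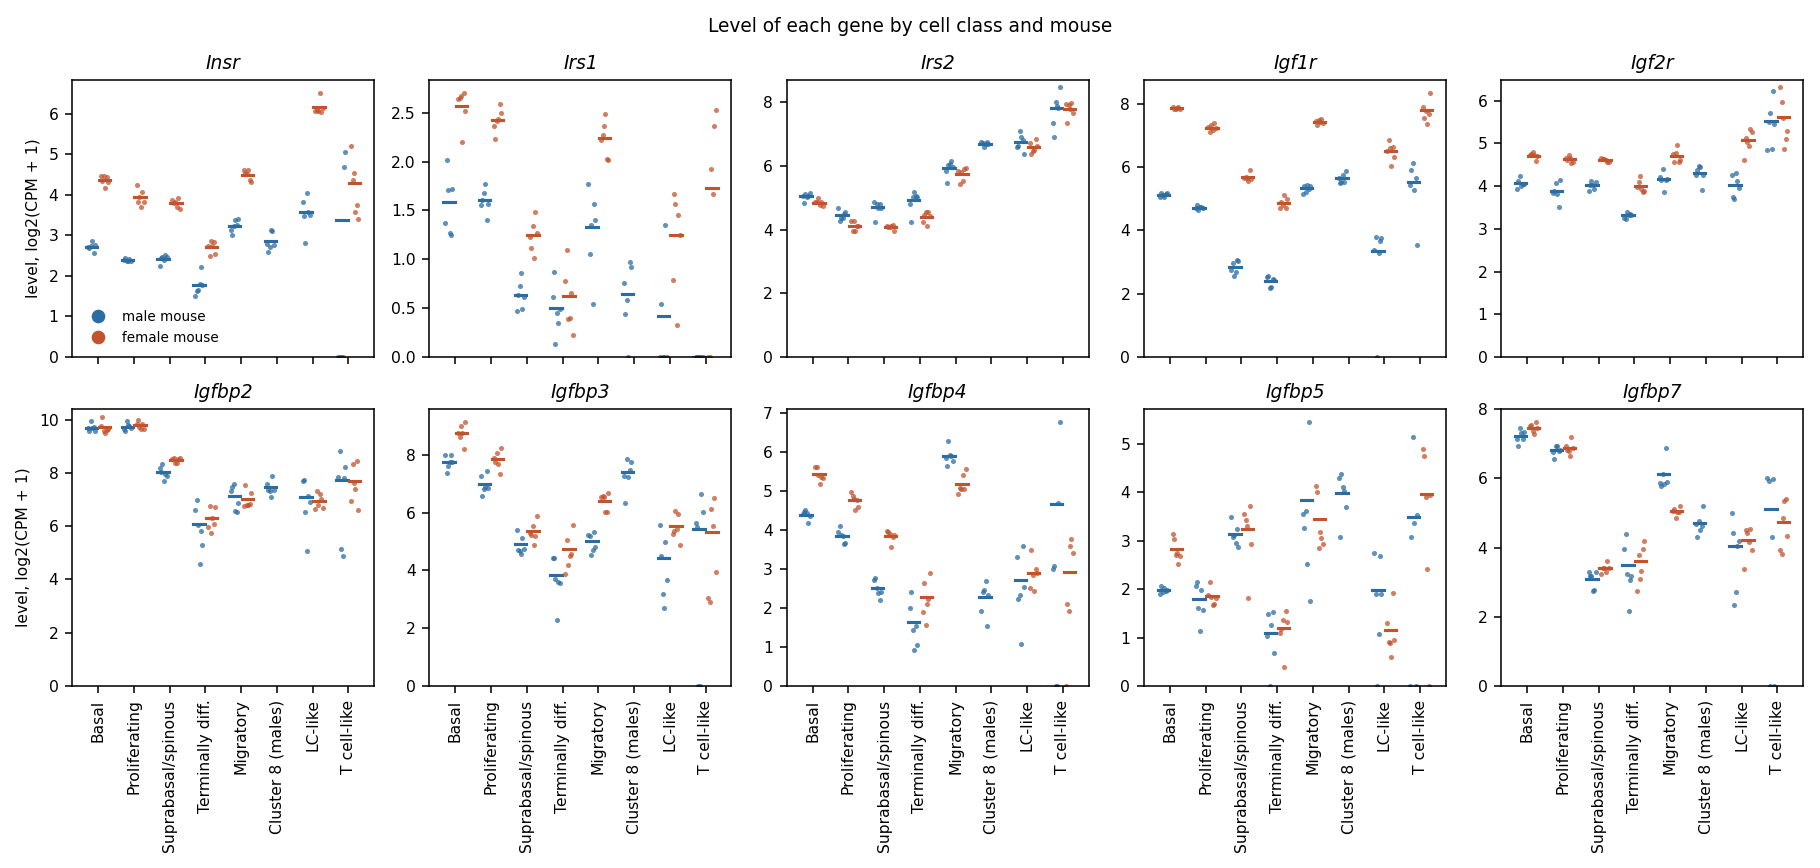
Level of the 10 genes in each cell class, with 1 point for each mouse, males and females in separate colours, on a log2(CPM + 1) axis. Insr has its highest mean in LC-like cells and Irs2 in T cell-like cells in both sexes, with ranges of the 2 classes that overlap in males, whereas Igfbp2, Igfbp3 and Igfbp7 peak in basal or proliferating keratinocytes.

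Among the binding protein genes, Igfbp2, Igfbp3 and Igfbp7 were concentrated in the basal and dividing layers of keratinocytes. Igfbp2, whose product binds IGF2 with preference, had 850 ± 80.5 CPM in male proliferating and 830 ± 77.5 in male basal cells, and 884 ± 83.7 and 839 ± 140 in females. These overlapped each other and stood above suprabasal or spinous cells (259 ± 39.9 and 357 ± 24.3) in range. The lowest class was terminally differentiated, 67.0 ± 37.5 and 78.1 ± 22.5 CPM. Suprabasal cells were not uniform, since the Il34 cluster had 454 ± 73.8 CPM in males and 472 ± 25.5 in females, and the more mature suprabasal cluster 110 ± 27.5 and 205 ± 32.2. A UMI of Igfbp2 was found in 92.4% of male and 92.3% of female basal cells.

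Igfbp3, the main IGF carrier of serum, was highest in basal cells, at 217 ± 34.0 CPM in males and 438 ± 93.0 in females. Proliferating cells had 127 ± 28.7 and 231 ± 48.5, and suprabasal or spinous cells 29.0 ± 7.42 and 40.6 ± 10.4. Male cluster 8 had 168 ± 54.2 CPM, overlapping basal and proliferating cells. The female Has2 basal cluster had 627 ± 124 CPM and the Dlk2 basal cluster 295 ± 39.5, the same order as for Igf1r. Igfbp7 had 150 ± 19.2 and 176 ± 15.4 CPM in basal cells, 111 ± 10.6 and 117 ± 15.9 in proliferating cells and 7.53 ± 1.43 and 9.56 ± 0.916 in suprabasal or spinous cells, the largest ratio among the 10 genes between basal and suprabasal or spinous cells.

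Igfbp4, a carrier that inhibits IGF action until it is cleaved, was highest in migratory cells in males and in basal cells in females. In males migratory cells had 58.5 ± 9.47 CPM and basal cells 19.9 ± 1.68, and in females 35.4 ± 6.56 and 41.9 ± 4.94. Male cluster 8, which shared Krt79 with migratory cells, had 3.81 ± 1.27 CPM. Igfbp5, which is abundant in fibroblasts, had its highest class mean in cluster 8 in males (14.9 ± 4.59 CPM) and in T cell-like cells in females (14.6 ± 11.4 CPM, 22 UMIs, 1 mouse at 0). It was 7.82 ± 1.39 and 8.47 ± 3.47 CPM in suprabasal or spinous cells against 2.46 ± 0.855 and 2.61 ± 0.440 in proliferating cells.

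Male migratory cells had an uneven mouse. The mean of 13.4 ± 14.8 CPM for Igfbp5 came from 10.8, 8.66 and 11.3 in RD and 4.77, 42.7 and 2.38 in HFD mice. In the same mouse, HFD replicate 2, Igfbp7 was 117 CPM against 53.9 to 69.0 in the others. The summed fibroblast markers Col1a1, Col1a2, Col3a1, Lum and Pdgfra stood at 171 CPM in that mouse and at 1.34 to 22.2 in the other 5. Their part in the level of the binding proteins was not tested. Igf1, the ligand made by dermal fibroblasts, was nearly unseen, at 35 UMIs in all male and 4 in all female keratinocytes. Its highest male level in all keratinocytes, 0.192 CPM, was in HFD replicate 2, against a median of 0.0166 over the male mice. Igf2 had 161 and 196 UMIs.

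**Figure D2:**
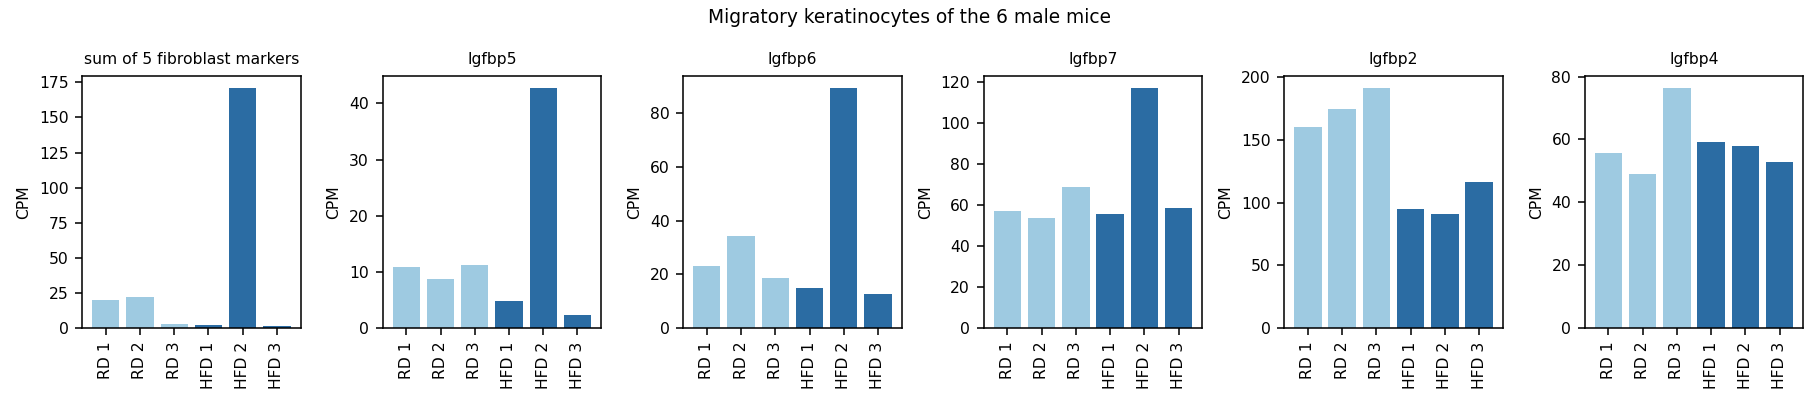
Male migratory keratinocytes by mouse, with the summed CPM of 5 fibroblast markers beside the CPM of IGF genes. HFD replicate 2 stands apart at 171 CPM of fibroblast markers and 42.7 CPM of Igfbp5.

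The LC-like cells were then set against all keratinocytes of the same mouse. Insr and Irs2 were higher in LC-like cells in 6 of 6 mice of each sex. Insr differed by 1.06 ± 0.44 in males and 2.17 ± 0.26 in females on the log2(CPM + 1) scale (mean ± SD, n = 6 mice), and Irs2 by 1.86 ± 0.28 and 2.11 ± 0.12. Igfbp2, Igfbp3, Igfbp5 and Igfbp7 were lower in 6 of 6 mice of each sex, as were Igf1r in males and Irs1 and Igfbp4 in females. Igf1r was lower in 5 of 6 females. Igf2r differed by 0.06 ± 0.34 in males, higher in 3 of 6 mice, and by 0.44 ± 0.30 in females, higher in 5 of 6.

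Part of the LC-like barcodes also held keratinocyte RNA. The 4 keratins Krt1, Krt5, Krt10 and Krt14 together reached 45.7 ± 9.67% of their keratinocyte level in male and 23.9 ± 5.61% in female LC-like cells. The reverse was small, since Cd74, Cd207, H2-Aa and H2-Ab1 reached 0.0252 and 0.0356% of their LC-like level in all keratinocytes. When barcodes with over 0.5% of their UMIs from the 4 keratins were left out, the keratin level dropped to 2.14 ± 0.56% and 1.68 ± 0.23%. Igfbp2 then went from 30.8 to 1.43% of its keratinocyte level in males and from 22.9 to 0.905% in females. Igfbp3 went to 3.499 and 1.57%, and Igfbp7 to 1.28 and 1.37%. In females these 3 binding protein genes stood under the percentage at which the keratins themselves remained. In males Igfbp2 and Igfbp7 did and Igfbp3 did not. Igfbp4 stayed above it, at 36.5 and 5.96% on 13 and 14 UMIs. Igfbp5 stood at 5.34 and 0.980%, on 1 UMI in each sex. The limit was set on the same keratins, so their remaining level is not an independent measure. Insr and Irs2 moved the other way. Insr went from 242 to 307% of its keratinocyte level in males and from 481 to 603% in females, and Irs2 from 377 to 536% and from 448 to 556%.

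Irs2 was high in T cell-like cells too. Irs2 stood at 771% of the keratinocyte level in males and 1027% in females, higher in 6 of 6 mice of each sex. Male T cell-like cells had 161, 119 and 258 CPM in RD and 235, 223 and 352 in HFD mice. Igf2r was also higher in 6 of 6 mice of each sex, and Igf1r in 5 of 6 males and 6 of 6 females. With the keratin limit, Irs2 came to 1137 and 1562%, Igf1r to 464 and 232% and Igf2r to 469 and 276% of the keratinocyte level, and Igfbp2 to 2.47 and 1.73%. The keratins themselves remained at 4.21 and 2.92%. Igfbp3 stood at 8.41 and 3.72% on 2 and 5 UMIs, and Igfbp4 and Igfbp7 at 18.8 and 21.6% in females on 3 and 15 UMIs and at 0 UMIs in males. Over every barcode of the class, Insr was higher in 2 of 6 males, on 5 UMIs, and in 3 of 6 females. Igfbp5 stood with the keratin limit at 302 and 346% of the keratinocyte level, higher in 4 of 6 males and 5 of 6 females, on 5 and 17 UMIs. These levels rest on few cells, with 26 male UMIs of Igf2r and 27 of Igf1r.

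**Figure D3:**
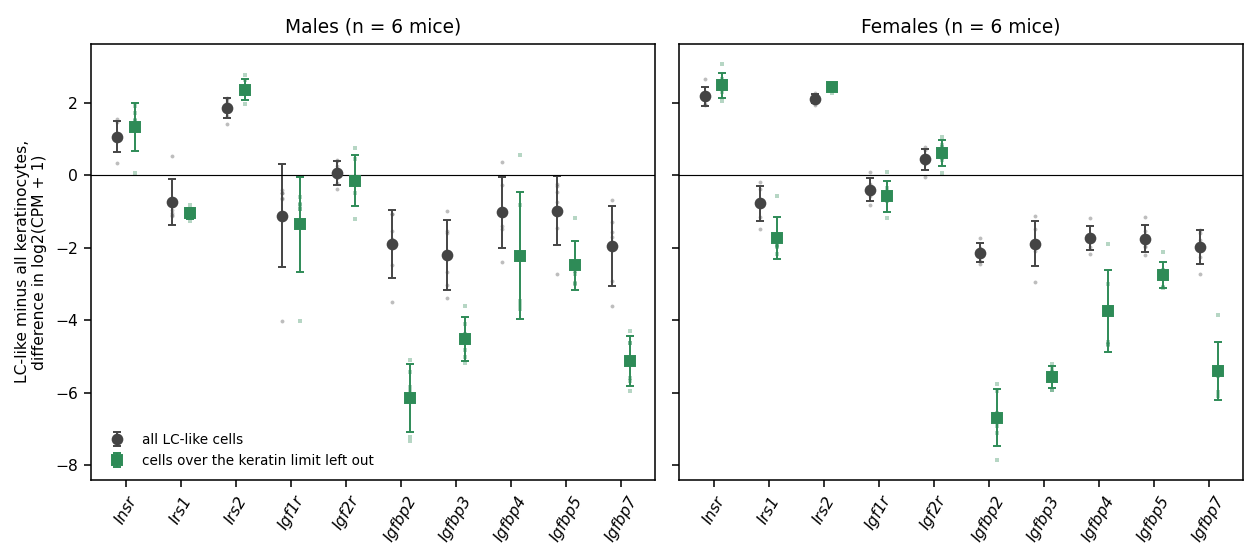
Difference between LC-like cells and all keratinocytes of the same mouse in log2(CPM + 1), with 1 point for each mouse, for every barcode of the class and for those under the keratin limit. Insr and Irs2 lie above 0 with either set of barcodes, and Igfbp2, Igfbp3 and Igfbp7 move further below 0 under the limit.

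The share of cells with a UMI gave the same order for Insr and Irs2. In females Insr was seen in 33.9 ± 5.73% of LC-like cells and 15.6 ± 1.95% of keratinocytes (mean ± SD over 6 mice), and in 12.4 ± 1.72% and 3.05 ± 0.41% when each cell was thinned to 2000 UMIs. In males the shares were 7.22 ± 2.64 and 5.82 ± 1.36%, and thinned 2.49 ± 0.83 and 0.947 ± 0.15%. Irs2 was seen in 44.0 ± 4.56% of male and 44.9 ± 4.75% of female LC-like cells, against 24.7 ± 4.91 and 20.1 ± 2.17% of keratinocytes. Median depth was 2827 to 5608 UMIs in male LC-like cells and 6702 to 15288 in male keratinocytes, and 5760 to 7776 against 9010 to 12555 in females. Thinning left 1282 of 1346 and 2075 of 2128 LC-like cells. Igfbp2 was seen in 15.2 ± 5.42 and 14.2 ± 2.77% of male and female LC-like cells as deposited. Under the keratin limit 29 male and 57 female UMIs of it remained. The part of keratinocyte RNA in these shares was not tested.

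Other genes followed these patterns over the sums of a class in a mouse, 48 in males and 42 in females, which share libraries and classes and so give a description only. Among 11057 genes, the one most like Irs2 was Foxo1 (Pearson r = 0.92 in males and 0.95 in females), which encodes a transcription factor that AKT inactivates. Igf1r was most like Ptprs (0.91 and 0.92) and Lamb3 (0.88 and 0.91), a subunit of the basement membrane protein laminin-332. Igfbp3 was most like Col17a1 (0.89 and 0.87) and Krt14 (0.86 and 0.85), a hemidesmosome collagen and the basal keratin. Igfbp7 was most like Wnt10a (0.89 and 0.95), and Igf2r was most like Prkar1a (0.87 and 0.88) and Prkacb (0.90 and 0.87), subunits of protein kinase A. Insr was most like Amn1 (0.83 and 0.82), Irs1 like Efemp1 (0.86 and 0.89), Igfbp2 like Gnai1 (0.87 and 0.88) and Igfbp4 like Apoe (0.85 and 0.89). Igfbp5 had no close partner, with r = 0.68 in both sexes for Bcr.

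HFD was compared with RD within each sex by summing the counts of a class in each mouse and fitting edgeR's quasi-likelihood test over all genes of the class. Of the 90 pairs of a gene and a class in males, 75 passed the filter on low counts and 0 passed an adjusted p of 0.05. At an unadjusted p under 0.05 there were 11, of which 9 were lower on HFD, and DESeq2 called 3. DESeq2 called 0.862% of the male tests of all genes and classes, and 9.32% of them had an unadjusted p under 0.05. Of the 11 pairs, 6 were in terminally differentiated cells, where 2626 of all 10351 genes tested had an unadjusted p under 0.05, against 1370 of 15053 in all keratinocytes. Over all genes the share called in males was 0% in all keratinocytes, basal, proliferating, suprabasal or spinous, migratory and LC-like cells, 0.0544% in cluster 8, 1.01% in T cell-like cells and 0.00966% in terminally differentiated cells. Of the 80 pairs in females, 72 were tested and 0 called, with 9 at an unadjusted p under 0.05, of which 8 were lower on HFD, and 0 called by DESeq2. DESeq2 called 3.54% of the female tests of all genes and classes, and 16.5% of them had an unadjusted p under 0.05. The direction of such tests is not given over all genes, and all keratinocytes share cells with the other keratinocyte classes. The counts of lower pairs in either sex are therefore not read as particular to these genes. In female all keratinocytes 3857 of all 17726 genes tested had an unadjusted p under 0.05, and in terminally differentiated cells 1181 of 10412. The share of all genes called in females was 3.4% in all keratinocytes, 0.945% in basal, 1.71% in proliferating, 2.65% in suprabasal or spinous, 0.288% in migratory, 0.0664% in LC-like, 0.0225% in T cell-like and 0% in terminally differentiated cells. The labels call the mice replicates without naming litters, so these p-values measure the spread between single mice.

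**Figure D4:**
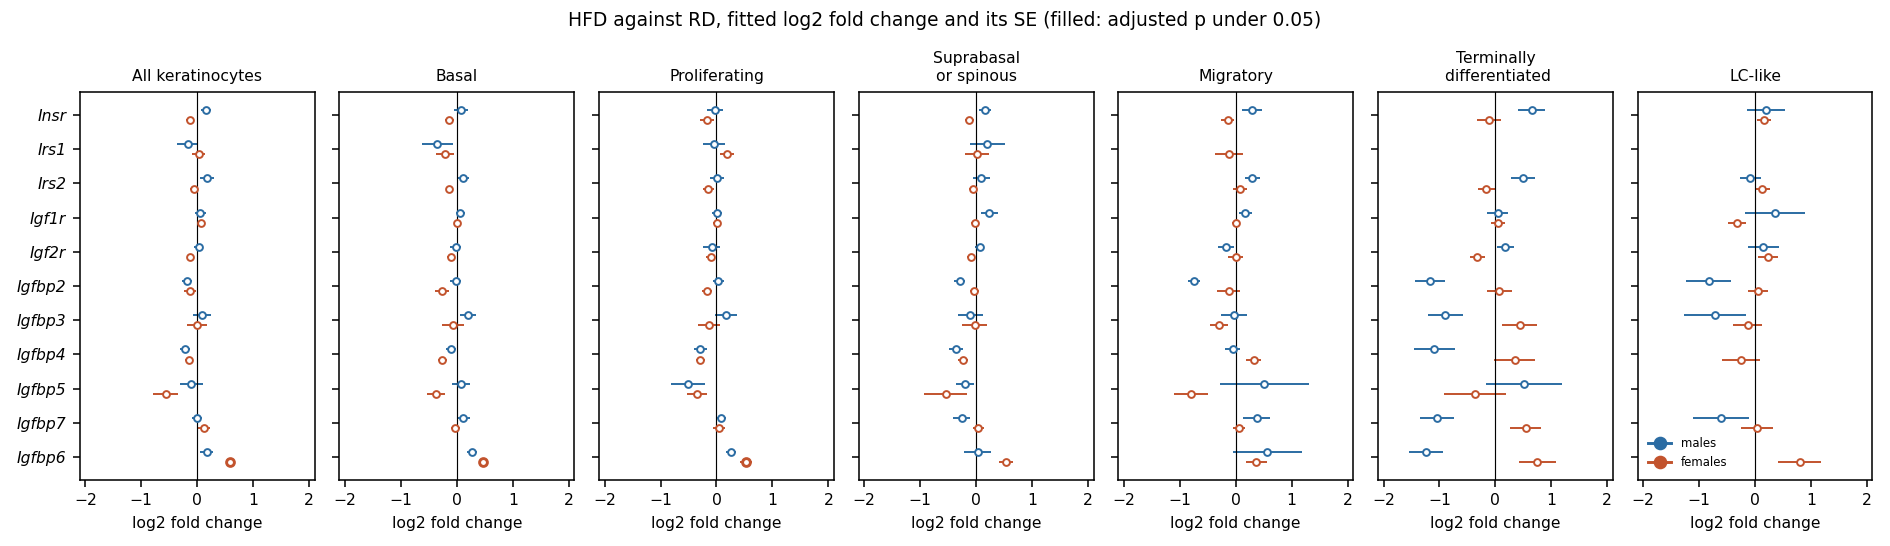
Fitted log2 fold change of HFD against RD with its SE for the 10 genes and Igfbp6 in 7 sets of cells, males and females in separate colours, with filled points for an adjusted p under 0.05. The filled points are Igfbp6 in female all keratinocytes, basal and proliferating cells, and the 10 genes have none.

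The lowest adjusted p in males belonged to Igfbp2 and Igfbp7 in terminally differentiated cells and Igfbp2 in migratory cells. In terminally differentiated cells RD males had 96.7, 124 and 65.3 CPM and HFD males 22.9, 55.3 and 37.9 CPM, with a log2 fold change of -1.16 (SE 0.27, edgeR adjusted p = 0.0830). In migratory cells the values were 160, 174 and 191 CPM against 94.7, 91.0 and 117, with -0.75 (SE 0.11, edgeR adjusted p = 0.0992). The groups did not overlap in either class, and DESeq2 called both, with adjusted p = 0.00192 and 3.33e-05. In suprabasal or spinous cells Igfbp2 had 290, 261 and 319 CPM against 208, 247 and 232, a log2 fold change of -0.29 (SE 0.10, edgeR adjusted p = 0.643). In basal cells, where the gene is highest, the log2 fold change was -0.02 (SE 0.10), and in proliferating cells 0.03 (SE 0.10).

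In male terminally differentiated cells 3 other binding protein genes had negative fold changes that did not pass. Igfbp7 had 14.6, 20.04 and 8.37 CPM in RD and 3.52, 7.31 and 8.11 in HFD mice, with log2 fold change -1.04 (SE 0.30, edgeR adjusted p = 0.0970). For Igfbp3 it was -0.90 (SE 0.32, adjusted p = 0.128) and for Igfbp4 -1.09 (SE 0.36, adjusted p = 0.117). Insr, from 1.82, 2.07 and 2.17 CPM to 2.49, 3.69 and 2.41, had 0.65 (SE 0.25), and Irs2, from 27.0, 17.7 and 31.8 to 35.2, 32.5 and 31.4, had 0.49 (SE 0.21). Neither passed after adjustment. Of the 10 genes, 9 were tested in these cells, and their median log2 fold change was 0.04.

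Basal markers and a division marker were measured beside these values. In the same cells Krt14 had 1523, 2171 and 1041 CPM in RD and 383, 917 and 856 in HFD mice (log2 fold change -0.99, SE 0.30, edgeR adjusted p = 0.101). The log2 fold change was -0.85 (SE 0.28) for Krt5, -0.67 (SE 0.30) for Col17a1 and -0.79 (SE 0.28) for the division marker Mki67, and these did not pass either (adjusted p = 0.115, 0.189 and 0.131). The part of basal transcripts in the binding protein values was not tested. Terminally differentiated cells were 6.46 ± 0.65% of RD and 8.72 ± 2.15% of HFD male cells. The Il1f6 cluster had 91.1 ± 26.4 CPM of Igfbp2 in RD and 33.5 ± 9.30 in HFD mice, and the Lce1 cluster 102 ± 34.2 and 46.9 ± 33.1. With a finer clustering the log2 fold change of Igfbp7 turned to 0.063, and those of Igfbp2 and Igfbp3 shrank to -0.40 and -0.21.

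**Figure D5:**
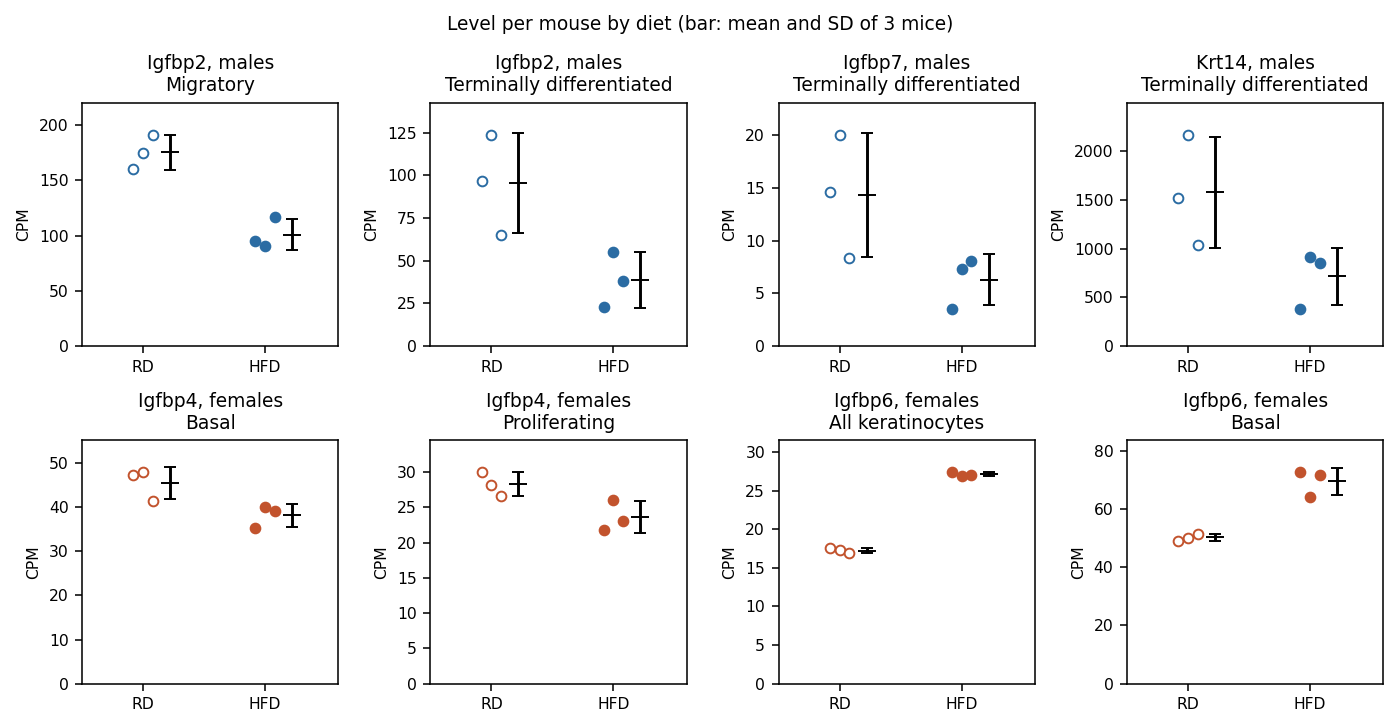
CPM by mouse on RD and HFD for Igfbp2, Igfbp7 and Krt14 in male terminally differentiated or migratory cells and for Igfbp4 and Igfbp6 in female keratinocytes, with points for mice and a bar for the mean. In male terminally differentiated cells Igfbp2 and Krt14 lie lower in the 3 HFD mice, and in female keratinocytes Igfbp6 lies at 16.9 to 17.6 CPM on RD and 26.9 to 27.4 on HFD.

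The other male differences did not pass either, and some in migratory cells changed when 1 mouse was left out. Igfbp4 had 10.9, 11.97 and 12.2 CPM in all keratinocytes on RD and 10.0, 8.21 and 10.6 on HFD (log2 fold change -0.22, SE 0.09), with -0.29 (SE 0.11) in proliferating and -0.35 (SE 0.13) in suprabasal or spinous cells. In migratory cells Igfbp5 had a log2 fold change of 0.51 (SE 0.80, edgeR adjusted p = 0.953), and of -1.55 (SE 0.31, adjusted p = 0.344) without HFD replicate 2. Igfbp7 went from 0.37 (SE 0.24) to -0.02 (SE 0.12) and Igfbp2 from -0.75 to -0.68 without that mouse. The receptors showed no call in basal cells, where Igf1r had 0.06 (SE 0.08), Insr 0.08 (SE 0.13) and Irs2 0.12 (SE 0.09).

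In females the genes with the lowest p were Igfbp4 and Igfbp5. Igfbp4 had 47.3, 48.0 and 41.4 CPM in basal cells on RD and 35.2, 40.1 and 39.2 on HFD, and 29.996, 28.2 and 26.6 against 21.7, 26.1 and 23.1 in proliferating cells. The groups did not overlap in either class, with log2 fold changes of -0.26 (SE 0.08, edgeR adjusted p = 0.157) and -0.29 (SE 0.08, edgeR adjusted p = 0.0922). Suprabasal or spinous cells had -0.24 (SE 0.09), whereas migratory cells had 0.32 (SE 0.13), from 29.0, 32.7 and 31.7 to 40.97, 31.8 and 45.9 CPM. Igfbp5 had 8.51, 7.61 and 6.33 CPM in all keratinocytes on RD and 3.38, 7.45 and 5.18 on HFD (log2 fold change -0.56, SE 0.23, edgeR adjusted p = 0.193). It passed when HFD replicate 2 was left out (-0.84, edgeR adjusted p = 0.0422), a refit whose share of all genes called is not given here. Igf2r in T cell-like cells had 79.1, 61.6 and 47.3 CPM against 28.4, 33.2 and 38.2, a log2 fold change of -0.88 (SE 0.35, edgeR adjusted p = 0.656) on 76 UMIs.

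In LC-like cells the diet groups overlapped for each of the 10 genes in both sexes. Overlap was not counted over all genes of these cells, so it is not read as the absence of a diet effect. The log2 fold change of Insr was 0.20 (SE 0.34) in males and 0.16 (SE 0.13) in females, and that of Irs2 -0.09 (SE 0.19) and 0.13 (SE 0.13). Male Igfbp2 had 208, 213 and 92.5 CPM on RD and 32.1, 141 and 119 on HFD (-0.83, SE 0.40, edgeR adjusted p = 0.862). The 4 keratins in the same barcodes stood at 60.1, 53.8 and 39.6% of their keratinocyte level on RD and at 33.5, 42.5 and 44.9% on HFD. The part of keratinocyte RNA in that difference was not tested. In simulated counts of the same depth, a 2-fold change was recovered for 52.8% of genes in male and 71.6% in female LC-like cells, and smaller changes were not simulated. The changed genes were many and drawn at random from all genes tested. The rates are therefore not those of the 10 genes, some of which rest on few UMIs in these cells.

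The difference between the diet effects of females and males was tested as an interaction. The sexes also differed in Cell Ranger version and in the lower limit on genes, and their classes were clustered and named separately. Sex cannot be told apart from these in this test. Of 70 tested pairs of a gene and a class, 0 passed, with 9 at an unadjusted p under 0.05 and 2 called by DESeq2. DESeq2 called 2.49% of the interaction tests of all genes and classes. Over all genes the share called by edgeR was 1.54% in all keratinocytes, 0.0412% in basal, 0.0209% in proliferating, 0.27% in suprabasal or spinous, 0.193% in migratory, 3.81% in terminally differentiated, 0% in LC-like and 0% in T cell-like cells. Of the 9, 7 were in terminally differentiated cells, where 2983 of all 11284 genes tested had such a p, against 2990 of 17998 in all keratinocytes. The female minus male difference in log2 fold change there was 1.58 (SE 0.46, edgeR adjusted p = 0.0665) for Igfbp7 and 1.24 (SE 0.39, adjusted p = 0.0759) for Igfbp2, and it was negative for Insr (-0.76, SE 0.33), Irs2 (-0.65, SE 0.29) and Igf2r (-0.50, SE 0.19). Krt14 in the same cells had 1.42 (SE 0.45).

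The other genes of the pathway were taken from a list of 53. In males 302 pairs of a gene and a class were tested and edgeR called 0. An unadjusted p under 0.05 was seen for 28, and DESeq2 called 3. Over all genes and classes of the males, 9.32% of tests had such a p and DESeq2 called 0.862%. In females 307 were tested and 8 called, all higher on HFD. DESeq2 called 16, and 58 had an unadjusted p under 0.05, beside 3.54% and 16.5% of the tests of all genes. The calls were 3 of 45 genes in all keratinocytes, 2 of 44 in basal, 1 of 43 in proliferating and 2 of 42 in suprabasal or spinous cells, beside 3.4, 0.945, 1.71 and 2.65% of all genes. For the interaction of diet and sex 305 were tested and 2 called. An unadjusted p under 0.05 was seen for 40, beside 13.1% of the tests of all genes, and DESeq2 called 6, beside 2.49%. The median log2 fold change of the list in female all keratinocytes was -0.01, against 0.01 over all genes tested, and that of the 10 genes was -0.09. The list held the ligands Igf1, Ins1 and Ins2, which were never abundant enough to be tested in either sex.

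Igfbp6, the carrier with the strongest preference for IGF2, rose in female keratinocytes on HFD. In all keratinocytes RD females had 17.6, 17.3 and 16.9 CPM and HFD females 27.4, 26.9 and 27.1, a log2 fold change of 0.59 (SE 0.06, edgeR adjusted p = 0.0166). In basal cells the values were 49.1, 50.1 and 51.5 against 72.7, 64.1 and 71.7 (0.46, SE 0.08, adjusted p = 0.0328) and in proliferating cells 24.5, 25.3 and 23.5 against 39.5, 31.5 and 36.3 (0.53, SE 0.10, adjusted p = 0.0368). The groups did not overlap in these sets, which share their cells in part. These calls were lost when a replicate block was added to the model. Suprabasal or spinous cells, where Igfbp6 is low, were 41.2 to 42.2% of cells in RD and 36.2 to 37.9% in HFD females, and basal cells a mean of 26.1 and 29.1%. The part of this mix in the values for all keratinocytes was not tested. Left-out mice moved the adjusted p in all keratinocytes between 0.0111 and 0.0919, with the call lost without any 1 of RD replicates 1, 2 and 3 and HFD replicate 3 (0.0919, 0.0679, 0.0653 and 0.0583) and kept without HFD replicates 1 and 2. In basal and proliferating cells it was kept without HFD replicate 2 and lost without any other mouse, with adjusted p of 0.0717 to 0.150 and 0.0959 to 0.147. In males Igfbp6 had 0.27 (SE 0.09) in basal and 0.26 (SE 0.08) in proliferating cells, which did not pass (edgeR adjusted p = 0.611 and 0.335).

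Htra1 and Grb14, which act at the edges of the pathway, were also called in females. Htra1, a protease that cleaves IGF binding proteins, rose in all keratinocytes from 9.38, 9.05 and 8.64 to 12.1, 14.6 and 12.2 CPM (log2 fold change 0.46, SE 0.08, edgeR adjusted p = 0.0263). Grb14, an adaptor that inhibits the insulin receptor, rose in suprabasal or spinous cells from 0.812, 0.908 and 0.687 to 2.11, 1.74 and 1.40 CPM (1.10, SE 0.21, edgeR adjusted p = 0.0350). These levels are close to the limit of detection, and the mean of Grb14 in female all keratinocytes was 0.987 CPM. Htra1 also rose in basal cells (0.42, SE 0.07, edgeR adjusted p = 0.0357) and Grb14 in all keratinocytes (0.93, SE 0.19, edgeR adjusted p = 0.0395). Each of these Htra1 and Grb14 calls was lost with the replicate block. Each was also lost without any 1 of RD replicates 1, 2 and 3 and HFD replicate 3, and those of Grb14 and basal Htra1 also without HFD replicate 1. The adjusted p without 1 of these mice was 0.0701 to 0.127 for Htra1 in all keratinocytes and 0.0601 to 0.145 for Grb14 in suprabasal or spinous cells.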

How the data were processed

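The deposited values were UMI counts per gene and barcode in 1 filtered 10x matrix for each of 12 mice. Per the file headers the authors counted the male libraries with Cell Ranger 6.1.0 and the female libraries with Cell Ranger 7.2.0. The submitters' processing notes name mm10 (GRCm38), Cell Ranger 7.2.0 and Seurat 5.0.0. Groups came from the sample titles.

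Following the study's stated limits, cells with fewer than 200 (males) or 500 (females) genes, more than 6000 genes or more than 5% mitochondrial UMIs were left out, which kept 6226 to 15193 cells of 7370 to 16254 barcodes in a library. Doublets were not removed in the main analysis. An alternative left out the barcodes with the highest simulated-doublet scores (0.8% for each 1000 barcodes in a library). Cells were log-normalised to 10000 UMIs, and 10 principal components of 2000 variable genes were clustered with the Leiden algorithm (leidenalg 0.10.2, igraph 0.11.9, scikit-learn 1.9.0, Python 3.11.15), males and females apart and without the pathway genes. A cluster took the name of the marker list with the highest mean log2 fold over other cells, if that was above 0 and at least 3 of its markers were detected (in 10% of cells, with a log2 fold of 0.5). Where the median UMIs of a cluster were far below those of its mice, a marker of the list also had to be among its 10 leading genes. These names were rebuilt here and may differ from the study's.

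Levels are UMIs of a gene for every 1000000 UMIs of a class in a mouse (CPM). Counts summed per mouse and class were tested with edgeR 4.0.16 (glmQLFit and glmQLFTest, TMM, filterByExpr, R 4.3.3) and Benjamini-Hochberg adjustment over all genes of the class, at 0.05. The same model with sex and an interaction term was fitted over the 12 mice. Alternatives were DESeq2 1.42.0, no filter on low counts, a replicate block, each mouse left out, doublets left out, a 10% mitochondrial limit, a clustering resolution of 0.6, a keratin limit of 0.5% of UMIs for LC-like and T cell-like cells and, added after the data were seen, separate fits for each cluster. On simulated counts, 2-fold changes were recovered for 52.8 to 82.4% of genes and 4-fold changes for 86.9 to 98.9%, and 3.26 to 10.4% of the calls were false (7.26% in female all keratinocytes, 10.4% in female LC-like cells). Values after ± are SDs over mice. The SE of a fold change is the size of the log2 fold change divided by the square root of edgeR's F statistic. That statistic uses a spread moderated over all genes of the fit. UMIs remove PCR copies, and low totals carry counting error.

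The 10 genes are named wherever measured. From the list of 53 further pathway genes, Igf1, Igf2 and Igfbp6 are named always and up to 10 others in a comparison where they passed (1 result is not reported here), and for likeness the 2 genes with the best correlation, of which 1 or 2 are printed. Marker genes are named where they stand beside a result. The genes and lists were chosen with earlier results of these data known. Gene positions are from GENCODE vM21, and promoters from RefSeq.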

Additional observations from a re-analysis of the deposited data

Results flagged for a closer look

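In 2 genes of the pathway list the effect of HFD differed between the female and male libraries by the test of the difference itself, both in terminally differentiated keratinocytes, where 3.81% of all genes tested passed the same test. Sex cannot be told apart here from the counting software, the lower limit on genes or the separate clustering of each sex. For Igfbp6 the difference in log2 fold change (female minus male) was 2.00 (SE 0.47, edgeR adjusted p = 0.0404). RD males had 2.53, 4.80 and 2.46 CPM and HFD males 1.03, 1.07 and 1.61, whereas RD females had 2.00, 3.81 and 2.08 and HFD females 3.51, 3.84 and 6.92. The call was lost with a 10% mitochondrial limit (1.596, adjusted p = 0.101) and with finer clusters (0.94, adjusted p = 0.746). For Foxo3, a transcription factor restrained by AKT, the difference was -0.83 (SE 0.21, edgeR adjusted p = 0.0417). Males went from 61.3, 67.2 and 65.0 CPM on RD to 79.3, 81.2 and 70.0 on HFD, and females from 95.7, 87.3 and 98.5 to 76.6, 85.8 and 58.3. The call was lost with the highest doublet scores left out (-0.50, adjusted p = 0.323), with the 10% mitochondrial limit (-1.31, adjusted p = 0.0968) and with finer clusters (-0.71, adjusted p = 0.472). Both calls were lost with a replicate block in the model. They were kept without Male RD replicate 3, Female RD replicate 2 or Female HFD replicate 2 and lost without any 1 of the other 9 mice, with adjusted p over the left-out mice of 0.0192 to 0.108 for Igfbp6 and 0.0210 to 0.112 for Foxo3. Krt14, a keratin of basal cells, went in the same cells from a mean of 1578 to 719 CPM in males (adjusted p = 0.101) and from 720 to 1019 CPM in females (adjusted p = 0.557), and its part in these differences was not tested.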

How the results depend on the processing

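Of the 10 genes, the count of gene and class pairs called on HFD against RD was 0 in each sex and for the interaction. In males it was 3 with DESeq2, 7 with no filter on low counts, 1 with a replicate block and 0 to 3 when single mice were left out (3 without Male RD replicate 3, namely Igfbp2, Igfbp4 and Igfbp7 in terminally differentiated cells). In females it was 1 with a 10% mitochondrial limit, 1 with the highest doublet scores left out, 1 with no filter and 0 to 2 with single mice left out (2 without Female HFD replicate 2, 1 without Female RD replicate 3, each time Igfbp5). For the interaction it was 2 with DESeq2, 8 with no filter and 0 to 4 with single mice left out (4 without Female RD replicate 2 or Male RD replicate 3, 1 without Male HFD replicate 2). Separate fits for each cluster, added after the data were seen, called 0 in either sex. The share of all genes called is not given here for left-out mice, the mitochondrial limit or the doublet scores. The counts under these settings are therefore not read as particular to the 10 genes.

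The number of genes higher in LC-like cells in 6 of 6 males was 1 with the highest doublet scores left out, since Insr was then higher in 5 of 6. At a clustering resolution of 0.6 the fold change of Igfbp7 in male terminally differentiated cells reversed from -1.04 to 0.063, and the interaction of Igfbp4 there from 1.44 to -0.66. The cause was not tested. Of 592 refitted values of 41 named fold changes, 482 kept their direction and their side of the threshold, 36 newly passed, 72 no longer passed and 2 reversed. Most of the 41 were not called in the main fit, so keeping their side mostly meant staying uncalled. The 72 losses could come only from the 8 female and 2 interaction calls of the pathway list. The keratin limit left the keratinocyte sums unchanged, so its refits of those classes could not move.

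The labels do not say that equal replicate numbers pair the mice. Deviations of equally numbered mice correlated at -0.23 to 0.25. Unequally numbered mice were not set beside them, so whether the numbers mark a shared day or litter cannot be told. The replicate block called Igfbp2 in male migratory cells (adjusted p = 0.0489) and lost the 8 female and both interaction calls of the pathway list. Over all genes and classes edgeR made 20 male, 1423 female and 783 interaction calls, against 799, 3525 and 2490 with DESeq2, 2343, 3788 and 2996 with no filter and 47, 92 and 209 with the block. Depth limits T cell-like cells most, where Insr rested on 5 UMIs in all males and 29 in all females.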
